A study of Drosophila melanogaster with 2 samples.

Results

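Binding of ADD1-GFP was examined at 6 Drosophila melanogaster genes that write, assist or erase methylation of lysine 9 on histone H3 (H3K9). The genes were taken by symbol from the Ensembl annotation: the methyltransferase genes G9a, Su(var)3-9 and egg, the egg cofactor gene wde, and the demethylase genes Kdm4A and Kdm4B. They are 6 of 13968 protein-coding genes, and of 18277 annotated genes in all, on the chromosome arms. A call belonged to a gene when its summit, the base that the authors' caller gave as the peak's highest point, lay in the gene or within 1 kb of it.

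The data came from chromatin immunoprecipitation and sequencing (ChIP-seq) of whole embryos of mixed sex, aged 0 to 16 h, of the strain ADD1-MiMIC-GFP. This line has an extra eGFP exon in an intron of ADD1, and the endogenous locus therefore expresses the fusion protein. The labels say that GFP was precipitated. A separate antibody field names CG8290, the systematic name of ADD1. The group held 2 biological replicates, numbered 1 and 3, of sonicated chromatin of 200 to 800 bp. No second genotype, treatment or untagged strain was analysed here, so every value describes a level of enrichment and none a difference between conditions. Whole embryos mix all cell types and stages of that window, and peak lists of genomic DNA carry no cell type markers.

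H3K9 methylation marks heterochromatin, where proteins of the HP1 family bind the methylated tail and transcription is often low. In flies, Su(var)3-9 acts mainly at pericentric heterochromatin and egg (eggless, the SETDB1 orthologue) in the germline, in early embryos and on chromosome 4. G9a is a further methyltransferase of this residue, wde (windei, related to mammalian ATF7IP) is needed for egg to act, and the KDM4 enzymes remove methyl groups from H3K9 and from lysine 36 of the same histone. ADD1 is known as a heterochromatin protein with an ADD domain like that of mammalian ATRX.

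Of the 6 genes, 3 had at least 1 peak that passed the authors' threshold on reproducibility between replicates, called kept here: wde with 3, Kdm4B with 2 and G9a with 1. Su(var)3-9 and Kdm4A had weak calls only, and egg had no call. Among protein-coding genes, 31.4% had a kept peak by the same placing, and 27.3% of all annotated genes did. Any pooled call was present at 5 of the 6, against 61.3% of protein-coding genes and 57.8% of all annotated genes. These shares are the background against which the members are read, and with 6 genes chosen by hand no test of the list was made.

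The calls numbered 25 in all, of which 6 were kept. This is 24.0% of the members' calls, beside 14.7% of all 30000 pooled calls. The signal value, the score that the authors' caller gave each call, ran from 25.8 to 1451 in the pooled list and serves here only to rank calls within a list. Kept peaks were exactly the 4402 strongest pooled calls, with a lowest signal of 96.4. The 19 other calls at the members had signals of 26.6 to 75.3 with a median of 34.9, at ranks 6276 to 28916. Their deposited −log10 q-values lay between 0.20 and 2.05, and 17 of the 19 were below 1. Within the members, 3 of the kept summits were in introns, 1 in a coding exon and 2 outside the gene, and none of the 25 lay in an annotated transposable element. The shares of all kept peaks or all pooled calls in these places were not computed, so these counts have no background. The number of reads is unknown, so no interval can be set on a signal.

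**Figure D1:**
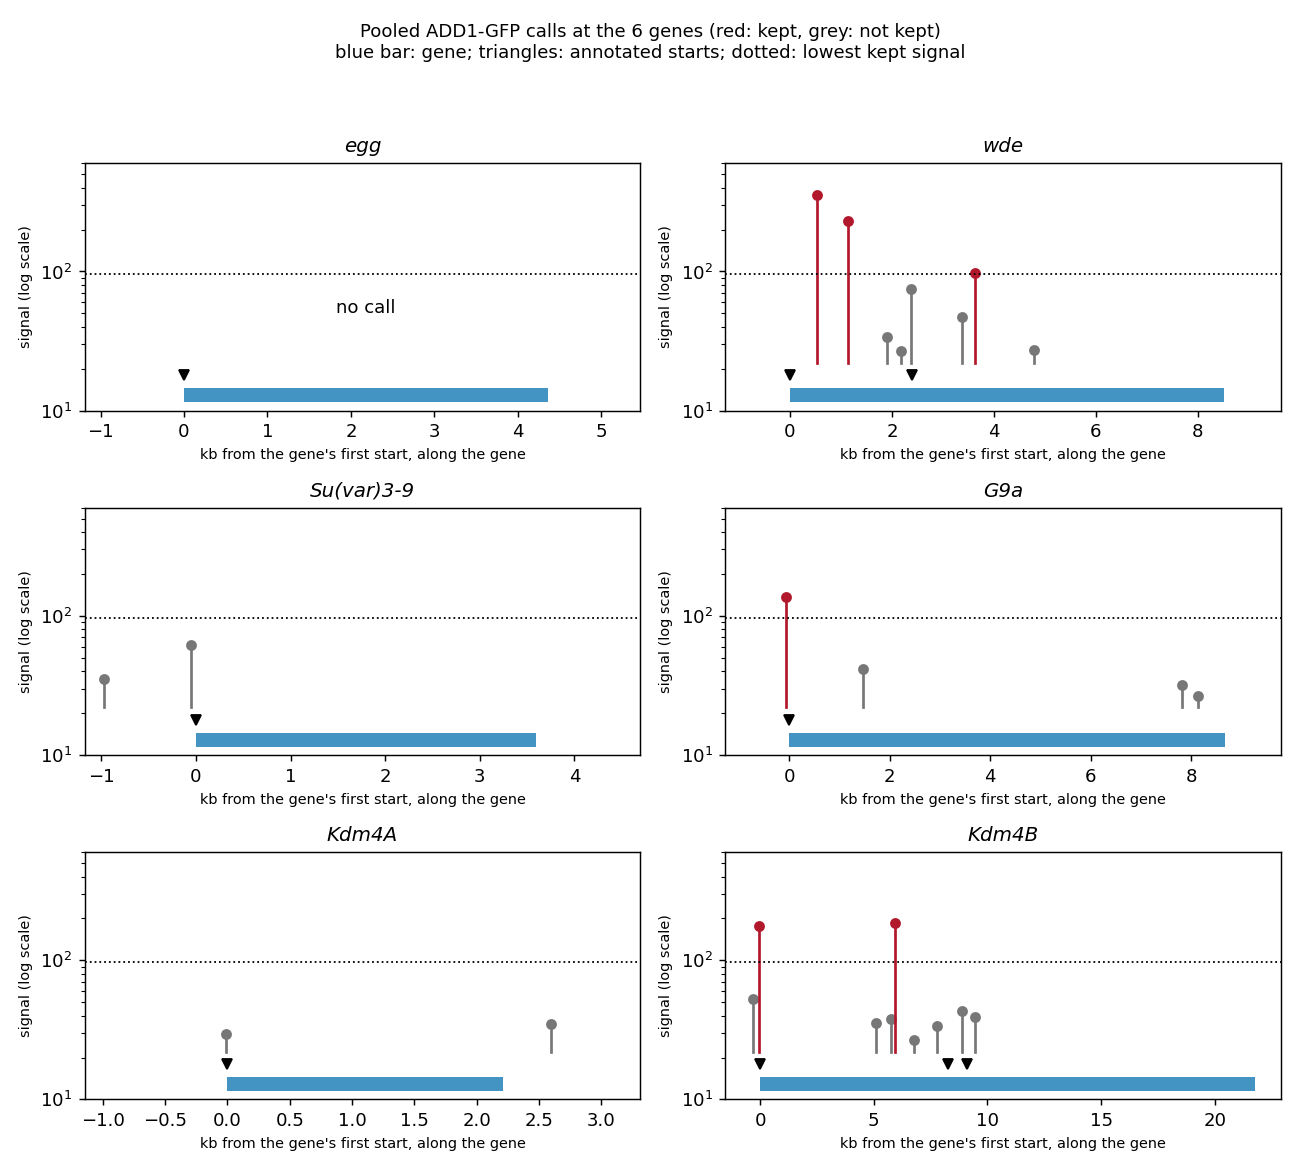
Each panel is 1 gene, with distance from its upstream start in kb on the x axis and the caller's signal on a log y axis. Each stem is the summit of 1 pooled call, red where kept (6 calls) and grey where not (19). The dotted line is the lowest kept signal (96.4), triangles are annotated starts, and the blue bar is the gene. Red stems stand 532, 1130 and 3619 bp into wde, at the start and in the body of Kdm4B, and at the start of G9a.

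G9a codes for the H3K9 methyltransferase named after its mammalian relative. It spans 8673 bp of chromosome X on the plus strand (FBgn0040372, dm6, X:245978-254650). Its kept peak (X:245695-246118, signal 137, rank 2458) had nearly the same standing in both replicates, at rank 2608 in replicate 1 and 2577 in replicate 3. The replicate summits lay 12 and 17 bp from the pooled summit. That summit, at base 245907, was 71 bp upstream of the G9a start and 51 bp from the start of CG3038, a gene on the other strand. The divergent starts are 122 bp apart, so the peak cannot be given to 1 gene of the pair.

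Su(var)3-9, the gene of the enzyme that is best known from suppression of position effect variegation, has a similar arrangement on chromosome 3R (FBgn0263755, dm6, 3R:15259864-15263458, minus strand). Its start is also that of eIF2gamma, a translation initiation factor gene in which the whole of Su(var)3-9 lies. On the other strand Set begins 94 bp away. Its strongest call (3R:15263300-15263723, signal 62.0) was not kept, ranking 8252 in the pool, 5614 in replicate 1 and 11748 in replicate 3. Its summit, at base 15263512, fell between the starts, 54 bp from that of Su(var)3-9 and 40 bp from that of Set. The other call (3R:15264220-15264643, signal 34.9, rank 19635) lay in a coding exon of Set, 974 bp from Su(var)3-9, with a match in replicate 1 only. No summit fell inside Su(var)3-9 in the pooled list.

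The sequences between these divergent starts are shown because each holds the summit of the strongest call of its gene and no annotated exon. They were read from the Release 6 assembly, plus strand, and capitals mark TATCGATA, the DRE octamer bound by DREF and BEAF-32, which is its own reverse complement and includes the shorter TCGATA. The summit is base 54 of the stretch at Su(var)3-9 (3R:15263459-15263551) and base 51 of that at G9a (X:245857-245977).
Su(var)3-9 and Set: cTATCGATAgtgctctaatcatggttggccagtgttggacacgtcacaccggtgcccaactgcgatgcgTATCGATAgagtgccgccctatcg
G9a and CG3038: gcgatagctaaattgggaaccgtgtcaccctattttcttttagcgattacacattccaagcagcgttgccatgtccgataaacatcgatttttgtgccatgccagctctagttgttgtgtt

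The octamer was present at bases 2 and 70 of the stretch at Su(var)3-9, under the weaker call, while the G9a stretch held none of the 6 motifs searched. Within 100 bp of the summit, the octamer was present in 7.16% of all kept peaks and 2.17% of the other pooled calls, and at least 2 copies were present in 0.682% and 0.145%. Both strands were also searched for GGTCACAC (the element bound by M1BP), for GGTATTT, for the E-box CAGCTG, and for GAGAG (the core of GAGA factor sites). GC content was 54.8% in the stretch at Su(var)3-9 and 43.8% in that at G9a.

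Beyond its start, G9a had 3 weak calls. The call 1471 bp downstream, in a coding exon (X:247237-247660, signal 41.5, rank 15184), had matches at ranks 15243 and 17213 in the replicates. The remaining calls, both in the 3′ untranslated region (signals 32.1 and 26.6), were each matched in 1 replicate. A stronger call (X:255462-255885, signal 82.4, rank 5494) lay 1024 bp past the end of G9a, just outside the 1 kb limit, with its summit on the start of cin, a gene of molybdenum cofactor synthesis. It ranked 4350 in replicate 1 and 10188 in replicate 3.

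At egg, which codes for the fly's SETDB1 enzyme, no list had a call. The gene (FBgn0086908, dm6, 2R:24775534-24779901, minus strand) and 1 kb on either side held 0 summits in the pooled list, 0 in replicate 1 and 0 in replicate 3. All of its 32-base words occur once in the assembly, so the sequence can be told apart from the rest of the genome. The nearest pooled summits were 12533 bp below and 7587 bp above the gene, and the nearest kept summit was 13718 bp away. Since each list stops at 30000 calls, the data show that no call at egg exceeded the pooled list's lowest signal of 25.8, and a weaker enrichment was not detectable in these lists. Egg overlaps the antisense RNA gene asRNA:CR44067 over 4191 bp, and Lcp9, a larval cuticle protein gene, lies 77 bp beyond its start.

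The cofactor gene wde carried the strongest and densest calls of the group. It spans 8519 bp (FBgn0027499, dm6, 2R:10800420-10808938, minus strand) and had 8 calls, or 0.760 per kb of gene and flanks, against a median of 0.223 over protein-coding genes and 0.218 over the arms. The upper quartile over protein-coding genes was 0.469. Some of the 8 calls overlap each other, and overlapping calls were counted separately. The strongest peak (2R:10808193-10808591, signal 352) ranked 260 in the pool, 163 in replicate 1 and 364 in replicate 3. Of protein-coding genes, 364 had a stronger strongest call. Its summit was in an intron, 532 bp downstream of the upstream start and thus just outside the 500 bp used to call a peak promoter-proximal. The next kept peak (2R:10807727-10808078, signal 230) was also intronic, 1130 bp from that start, and ranked 777, 1457 and 474 in the pool, replicate 1 and replicate 3.

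The third kept peak of wde was at the edge of the threshold. It had signal 96.7 and rank 4379 (2R:10805107-10805530), in a coding exon 3619 bp into the gene. Its match in replicate 3 ranked 4285, and its match in replicate 1 ranked 5364, below the 4402 strongest calls of that list. The call nearest to the internal start of wde, with its summit 28 bp from it, was not kept (signal 75.3, rank 6276; 9541 in replicate 1 and 4681 in replicate 3). No pooled call lay between the upstream start and the gene on its other side, CG12935, whose start is 459 bp away. Replicate 1 had a weak call there (rank 25734), and the summit of a weak replicate 3 call (rank 20089) lay just beyond, in the 5′ untranslated region of CG12935. The part of wde beyond 4786 bp from its upstream start had no pooled call.

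Kdm4A codes for a demethylase of H3K9 and of lysine 36. It is the shortest of the 6 genes, at 2214 bp (FBgn0033233, dm6, 2R:7922775-7924988, minus strand), and had 2 weak calls. The call at its start (2R:7924790-7925213, signal 29.7, summit 14 bp from the start) ranked 24896 in the pool, 29966 in replicate 1 and 24360 in replicate 3, near the end of each list. The other (2R:7922178-7922601, signal 34.8, rank 19747) lay 385 bp past the end of Kdm4A in a coding exon of Or43b, an odorant receptor gene. It was matched at rank 9172 in replicate 1 and by no call in replicate 3. Of its 32-base words, 99.1% occur once in the assembly.

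Kdm4B, the other KDM4 gene, is the longest member at 21785 bp (FBgn0053182, dm6, 2R:13176553-13198337, minus strand) and had 9 calls. Per kb this was 0.378, lower than at wde and close to the 0.375 of G9a. Its kept peak at the upstream start (2R:13198167-13198590, signal 176) had its summit 42 bp outside the gene and ranked 1492 in the pool, 2283 in replicate 1 and 1280 in replicate 3. ValRS, a valyl-tRNA synthetase gene, starts 513 bp away on the other strand, and the summit was within 500 bp of both starts. The other kept peak (2R:13192181-13192604, signal 186) was in an intron, 5944 bp into the gene, and ranked 1339, 1284 and 1354. It was 2307 bp from the nearest start, an internal one that Kdm4B shares with seq and CG17724.

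The 7 weaker calls of Kdm4B had signals of 26.7 to 52.5. Those with summits 8881 and 9467 bp into the gene lay in introns of Kdm4B, seq and CG17724 at once and cannot be assigned to 1 of them. The 3′ part of the gene, past 9467 bp from its upstream start, had no pooled call. From the shared internal start to the 3′ end, 13534 bp of Kdm4B also belong to seq and CG17724, and the part without a pooled call lies within them. Soft-masked sequence, which the assembly marks as repeats, made up 16.2% of the gene and its flanks, and 99.6% of its 32-base words were unique.

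**Figure D2:**
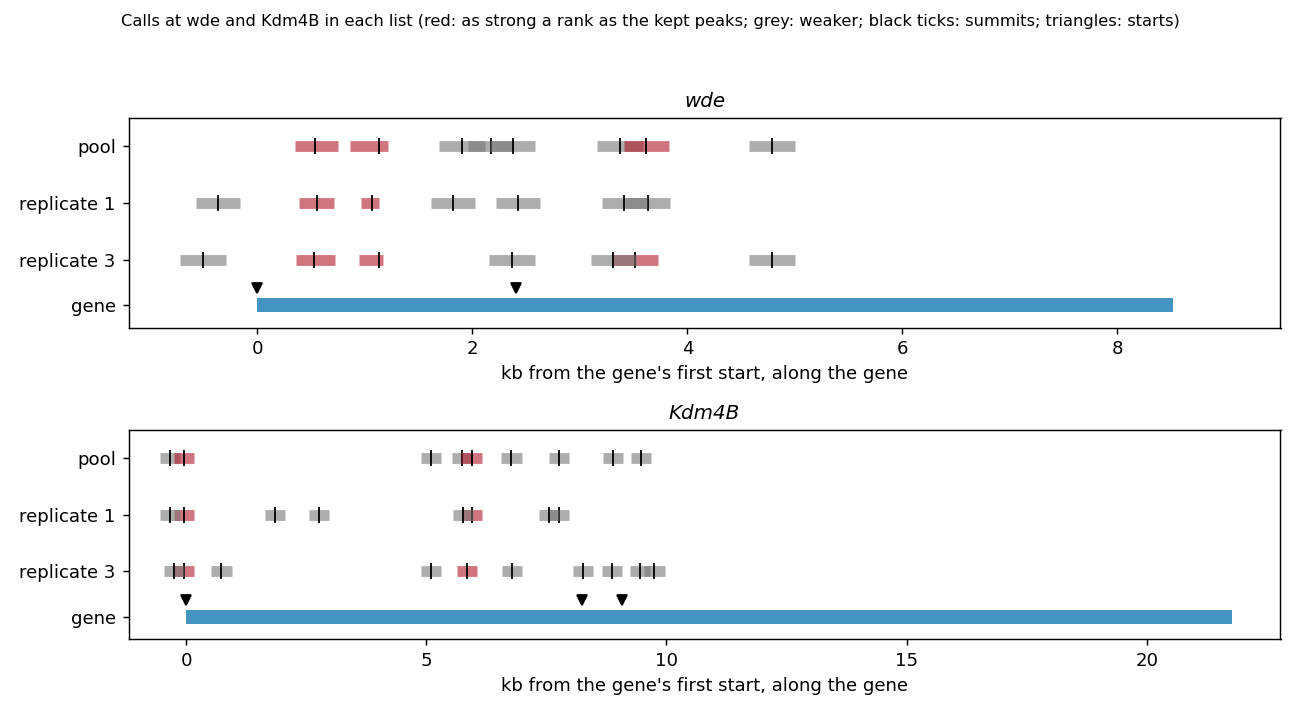
Positions of the calls at wde and Kdm4B in the pooled list and in each replicate list, as kb from the upstream start of the gene on the x axis. Bars are calls, ticks their summits, red a rank of 4402 or better in that list and grey a weaker rank. The red calls at 532 and 1130 bp in wde and at the start and 5944 bp of Kdm4B recur in all 3 lists, while many grey calls appear in 1 replicate list only.

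Kept peaks were chosen by the authors for reproducibility between these replicates, so their matches are a description and no test. All 6 kept peaks had a match in both replicate lists, and 5 of the 6 matched calls among the 4402 strongest of each, the exception being the third peak of wde. Over the whole pooled list 99.3% of kept peaks had a match in both. The share of all kept peaks with matches among the 4402 strongest of each replicate was not computed, so the 5 of 6 has no background. Of the 19 other calls, 7 were matched in both replicates and 12 in 1 of them, 5 only in replicate 1 and 7 only in replicate 3. Over all pooled calls that were not kept, 52.4% were matched in both. The pooled calls are made from the reads of both replicates, so a match is not independent support.

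Neighbouring pooled calls can share a match. At wde the replicate 3 call at rank 4285 was the match of the kept peak and of the overlapping call at rank 12594, and that at rank 4681 was the match of the calls at ranks 6276 and 28832. At Kdm4B the replicate 3 call at rank 1354 matched the kept intronic peak and the call at rank 17484 beside it. Ranks of these weaker calls in replicate 3 therefore belong to their stronger neighbours. The wde call at rank 12594 also matched a weaker replicate 3 call, at rank 12108, which was not taken. Those at ranks 28832 and 17484 had no other match in replicate 3, and the shared match is included in the counts above.

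**Figure D3:**
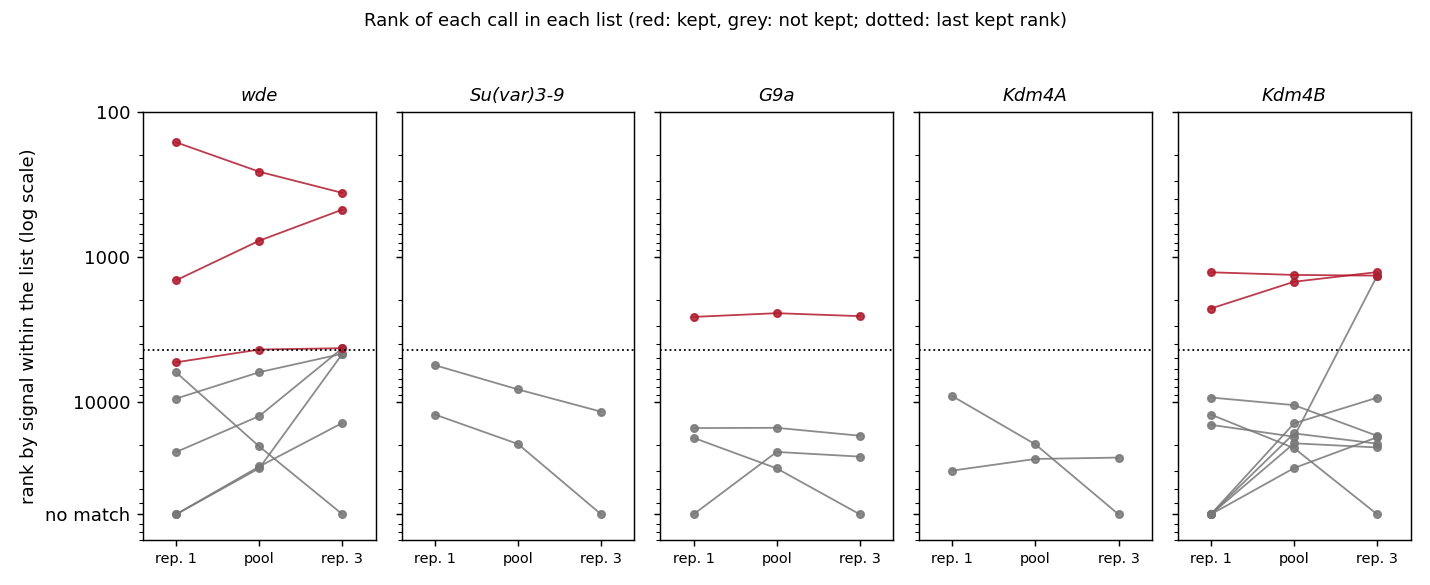
Rank of each of the 25 calls in replicate 1, in the pool and in replicate 3, on a log y axis with strong calls at the top. Lines join a pooled call to its strongest match, which neighbouring calls can share, and calls with no match are placed at the bottom. Red lines are the 6 kept peaks, which lie above or near the last kept rank (4402, dotted) in every list, and grey lines are the others, which cross and often end without a match.

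The order of the 5 genes with calls was the same in each list when every gene was ranked by its strongest call. In replicate 1 the ranks were 163 for wde, 1284 for Kdm4B, 2608 for G9a, 5614 for Su(var)3-9 and 9172 for Kdm4A. In replicate 3 they were 364, 1280, 2577, 11748 and 24360 in the same order. Between wde, Kdm4B, G9a and Su(var)3-9, the ranks of neighbours in this order did not overlap across the replicates. How often this holds over all genes was not computed. Those of Su(var)3-9 and Kdm4A did overlap, since replicate 1 had Kdm4A at 9172 and replicate 3 had Su(var)3-9 at 11748. The Kdm4A call behind the rank in replicate 1 lies in Or43b, not in Kdm4A. At Kdm4B the rank in replicate 1 is that of the intronic peak, and the rank in replicate 3 is that of the peak at the start. The intronic peak ranked 1354 in replicate 3, and the peak at the start ranked 2283 in replicate 1.

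Each replicate list held 24 calls at the members. In replicate 1, 5 of these matched no pooled call, and in replicate 3, 6 did not. Kdm4B had 3 of them in each list, among them a replicate 3 call in an intron 733 bp from the upstream start (rank 14851) and replicate 1 calls 1854 and 2765 bp from it (ranks 25964 and 24345). None of these was among the 4402 strongest of its list. At G9a, replicate 1 had such a call in a coding exon (rank 18251) and replicate 3 had 1 just past the gene, 45 bp from the start of CG42376 (rank 16936).

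Mean GC content within 100 bp of the summit was 37.4% ± 6.59 (SD, n = 6 windows) in the kept peaks of the members, against 37.2% in all 4402 kept peaks. In the 19 other calls it was 40.4% ± 9.23 (SD), against 39.6% in all other pooled calls. Of the 6 kept windows, 0 held TATCGATA, and 2 of the 19 other windows did, that at the Su(var)3-9 start and that of the wde call at rank 12594. The shorter core TCGATA was in 2 of the 6 (20.8% of all kept peaks), at the Kdm4B start and at the third peak of wde, and in 3 of the 19 others (10.96% of all other pooled calls). GGTCACAC was in the window at the Kdm4B start (4.50% of all kept peaks) and in 2 of the 19 others (1.65% of all other pooled calls). The strongest peaks, both in wde, and the peaks of G9a and of the Kdm4B intron held none of these 3 motifs. GGTATTT was in none of the 25 windows (7.04% of all kept peaks and 4.76% of the other pooled calls). CAGCTG was in 1 of the 6 kept and 1 of the 19 other windows (9.45% and 8.04%), and GAGAG in 1 and 5 (23.1% and 24.1%). A missing match says only that these letters are absent from the window.

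Promoter-proximal kept peaks, with a summit within 500 bp of an annotated start of the gene, were present at 2 of the 6 members, G9a and Kdm4B, against 22.9% of protein-coding genes. Both summits were also within 500 bp of the start of a divergent neighbour, CG3038 or ValRS. At wde the kept peaks were 532 bp or more from either annotated start. The other 4 kept summits, in the bodies of wde and Kdm4B, overlapped no other annotated gene.

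Related genes are given for comparison, in 4 lists that were drawn up with earlier results of these data known and were not tested. The lists of methyltransferases and demethylases share an enzyme class with the members, and most of their enzymes act on other residues. Among genes of other histone lysine methyltransferases, 9 of 10 had a kept peak in the gene or within 1 kb, and 5 of 10 within 500 bp of a start; with no flank the count was 4. Among genes of other histone lysine demethylases, 4 of 6 had a kept peak, and 2 of 6 near a start. Other here means outside the 6 members, and Kdm3 in this list also codes for an H3K9 demethylase. The strongest call at Kdm3 (rank 6030) was not kept. The lists of nuclear piRNA silencing genes and of readers of H3K9 methylation had 2 of 6 and 2 of 5. For the counts within 1 kb the background is the same 31.4% of protein-coding genes, and for those within 500 bp of a start it is 22.9%. No share of all genes was computed for the count with no flank. Median gene length differed between the lists, from 1.68 kb for the readers to 7.69 kb for the other methyltransferases, with 6.44 kb for the 6 members. Over all protein-coding genes it was 2164 bp, so the background shares come from shorter genes than those of the members and of most lists. The part of gene length in these counts was not tested.

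Of the 10 other methyltransferase genes, 5 had a call among the 500 strongest of the pool. The share of all protein-coding genes with such a call was not computed, so this count has no background. E(z), the H3K27 methyltransferase of Polycomb repression, had its kept peak in its 5′ untranslated region, 58 bp from a start (signal 315, rank 339). In trx, the trithorax gene, the strongest of 4 kept peaks was intronic, 3034 bp from a start (signal 358, rank 235). Hmt4-20, which codes for an H4K20 methyltransferase, had an intronic peak 201 bp from a start (signal 288, rank 431). The peak within 1 kb of ash1, another trithorax group gene (signal 1233, rank 3), was 8141 bp from the ash1 start and nearest to that of CG14100. That at Set1, an H3K4 methyltransferase gene (signal 326, rank 307), was nearest to the start of MED21. The strongest calls at trr and Set2 were likewise nearer to the starts of Coa8 and CG1998. Only NSD, an H3K36 methyltransferase gene, had no call.

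Of the demethylase genes, Kdm2 had an intronic peak 4302 bp from a start (signal 319, rank 327). The peak at NO66 (signal 498, rank 91) was nearest to the start of mRpL33, and 78.5% of the 32-base words of NO66 and its flanks were unique. Su(var)3-3, which codes for the fly LSD1 enzyme, had 1 weak call, in its 5′ untranslated region (rank 20191). Among the genes that act with egg in nuclear piRNA silencing, the strongest call, at Su(var)2-10, a SUMO ligase gene (signal 409, rank 168), was in the 5′ untranslated region of GstE13. The gene Panx (panoramix), which links the Piwi complex to the silencing machinery, had no call. In the list of readers, the HP1a gene and HP1b had kept peaks near a start (ranks 1274 and 1958), the former nearer to the start of Ssb-c31a. In the same list, HP1c and the HP1a partner gene Su(var)3-7 had no call.

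**Figure D4:**
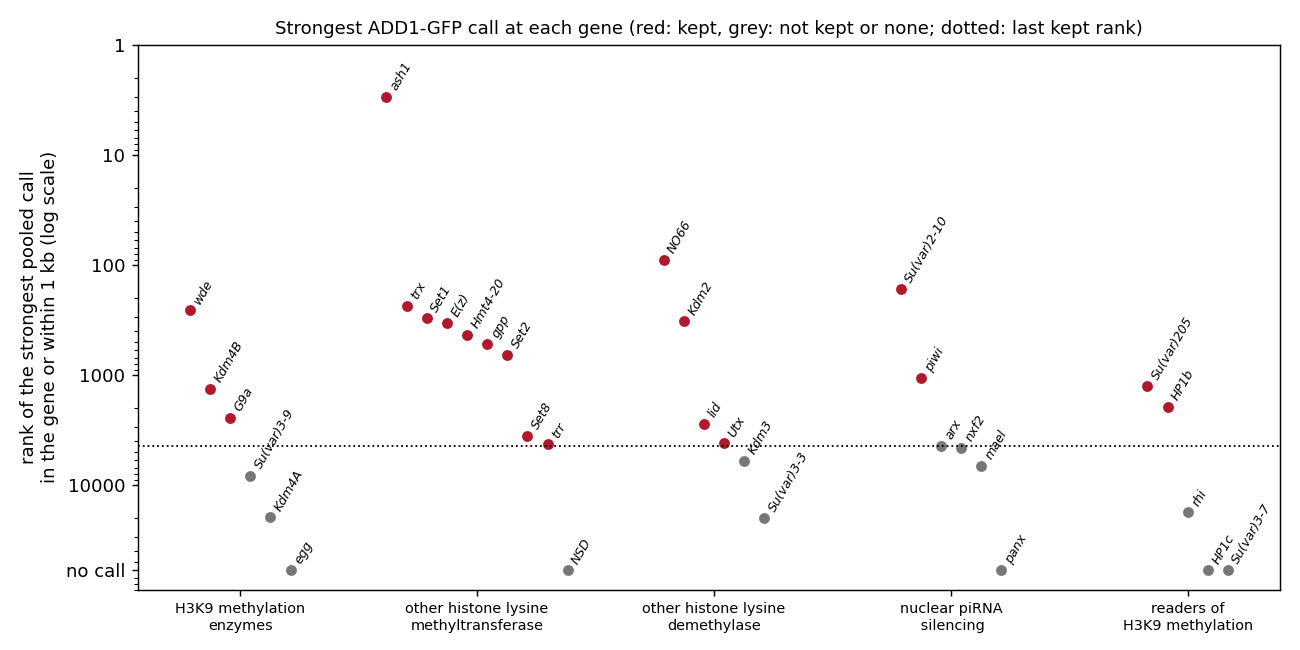
Rank of the strongest pooled call in each gene or within 1 kb, on a log y axis with strong calls at the top, for the 6 H3K9 enzyme genes and 4 lists of related genes. Points are genes, red where that call was kept, and genes with no call are placed at the bottom; the dotted line is the last kept rank (4402). The members range from rank 260 (wde) to no call (egg), and 9 of 10 other methyltransferase genes are red.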

How the data were processed

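Peak lists in narrowPeak format were used as deposited. Per the file lists deposited with the samples, the authors made a list of peaks and background for each replicate (numbered 1 and 3) and for both pooled, on dm6, and a list thresholded by irreproducible discovery rate (IDR). All these lists also derive from 1 further file, the same for each, so the replicate lists share that input. Aligner and caller are not named in the labels or file lists. The authors' signal value per call and the deposited −log10 q-value were taken as such. The dm3 lists were not used here. Signals were ranked within a list only. Library depth is unknown.

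Summits were placed on Ensembl release 115 genes, and sequence came from the Release 6 assembly, with Python 3.11.15 and pandas 2.3.3. A pooled and a replicate call were matched if their overlap reached 50% of the shorter one, and the strongest match was taken. Placing and matching were tested on simulated calls. Starts are annotated transcript starts. Uniqueness is the share of 32-base words found once in the assembly, and window values use 100 bp on either side of a summit.

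The 6 genes, the lists and the motifs were chosen with earlier results of these data known. Of the 27 genes in 4 related lists, 2 (lid, panx) were found by synonym. Named genes are the 6 members, list genes with a call among the 500 strongest or with none, and genes that overlap or neighbour a member; others were named after their values were seen. No p-value was computed, since there is 1 group. Alternatives were other flanks, placements, thresholds, start distances, matching rules and windows, and each replicate alone.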

Additional observations from a re-analysis of the deposited data

How the results depend on the processing

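When the kept peaks were limited to those above their median signal, 1 member in place of 2 had a kept peak within 500 bp of a start, since G9a fell out. The other alternatives run left each main count within 1.5 times its value. Pooled calls at the members numbered 18 with no flank and 31 with a flank of 2 kb, against 25. Kept peaks numbered 4 with no flank and 4 above the median signal, against 6, and 6 with the 4402 strongest calls of either replicate alone. In replicate 1 these were not the same sites: the third wde peak (rank 5364) dropped out, and a call at the cin start (rank 4350), within 1 kb of G9a in that list, came in. Members with a kept peak numbered 2 with no flank, 2 above the median signal and 2 where the nearest start had to be the member's, against 3. With starts of 1000 bp, wde joined, giving 3 in place of 2. With summits within 100 bp as the match, 5 of 6 kept peaks were matched in both replicates. The lists of related genes depended more on the flank: with none, 4 of 10 other methyltransferase genes kept a peak in place of 9, and with 2 kb, 5 of 6 piRNA silencing genes in place of 2. Shares of all protein-coding genes were computed for the 1 kb flank only, so counts at other flanks have no background. Counting all calls of 1 replicate, asking for the nearest start and asking for the top calls of both replicates were added after the data were seen. Without read depth, no error can be set on a signal. No paired analysis was possible because the series has 1 group.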
